A study of Mus musculus with 2 samples.

Results

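Genes whose transcripts end at different places were compared between total brain homogenate and a fraction enriched in synaptosomes, the pinched-off nerve endings that carry a piece of the postsynaptic membrane. The genes were those listed with exactly 2 transcripts on 1 chromosome and strand, each transcript with at least 200 estimated counts summed over both libraries, and with 3′ ends at least 500 bases apart. Of 23329 genes in the files, 2744 were listed with exactly 2 transcripts and 758 of those reached the count minimum for both, and 85 had ends far enough apart. Within each gene, the transcript that ends further downstream is called distal here and the other proximal, and the quantity compared is the distal share, the distal counts as a percentage of the gene's counts. The count minimum was read from these same libraries, from their sum. A transcript rare in 1 library could therefore pass through its counts in the other, so the choice is not independent of the shifts.

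Both libraries came from whole brain of C57BL/6 mice, labelled wild type (WT), with no treatment named. The sources used here give no age, sex or number of brains. The homogenate library holds RNA of brain tissue as homogenised, and the synaptosome library holds RNA of the material collected between 3% and 10% Percoll, a density gradient medium, after nuclei had been spun out. Each fraction had 1 library, so no value has a replicate and neither a test nor a p-value was possible. Instead, a gene was counted as shifted when the odds of its distal against its proximal transcript differed at least 2-fold between the libraries and the exact 95% interval of the odds ratio excluded 1. All intervals cover counting error only, not the error of assigning reads to transcripts or the spread between animals and preparations. In bulk RNA, fewer cells of a type and less RNA per cell cannot be told apart.

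Where a messenger RNA ends is set by cleavage and polyadenylation, in which a protein complex reads signals in the nascent RNA, cuts it and adds a poly(A) tail. A gene can use an earlier or a later end within the same last exon, which changes the length of the 3′ untranslated part and the binding sites it carries, or it can splice to a different last exon, which also changes the end of the protein. Brain is known for its use of distal ends, and the 3′ untranslated part holds signals by which some mRNAs are carried into dendrites and axons.

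The coding ends below are shown because they are what the choice of 3′ end changes in the protein of genes whose distal share differed most in percentage points, or that are the best known pairs of brain isoforms. They were taken from GENCODE M21 transcripts (build mm10) with the same exon borders as the deposited transcripts. Each is the end of the coding sequence, 5′ to 3′ up to and including the stop codon, with only the last 90 bases where the differing part is long. Capitals mark bases of the part that the other transcript does not use as its coding end, and lower case marks the last 15 shared bases. Where lower case is followed by capitals, an intron may lie within the coordinates.
Cdc42 distal, widespread form, chr4:137321103-137328727 (minus strand): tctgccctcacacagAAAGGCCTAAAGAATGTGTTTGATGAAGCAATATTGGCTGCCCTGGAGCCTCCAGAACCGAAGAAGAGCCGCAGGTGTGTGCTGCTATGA
Cdc42 proximal, brain form, chr4:137322530-137328727 (minus strand): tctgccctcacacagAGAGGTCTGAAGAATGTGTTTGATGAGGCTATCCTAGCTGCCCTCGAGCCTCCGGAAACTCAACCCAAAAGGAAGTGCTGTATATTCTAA
Gnao1 distal, variant A, chr8:93966966-93967055 (plus strand): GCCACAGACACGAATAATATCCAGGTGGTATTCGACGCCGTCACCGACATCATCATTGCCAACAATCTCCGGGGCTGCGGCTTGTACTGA
Gnao1 proximal, variant B, chr8:93956163-93956252 (plus strand): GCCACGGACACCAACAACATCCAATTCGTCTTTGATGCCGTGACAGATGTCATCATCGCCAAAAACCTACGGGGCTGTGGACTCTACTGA
Ntrk2 distal, full-length receptor, chr13:59128264-59128353 (plus strand): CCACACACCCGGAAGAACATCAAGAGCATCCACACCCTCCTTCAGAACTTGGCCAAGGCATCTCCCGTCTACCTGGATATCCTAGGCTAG
Ntrk2 proximal, truncated receptor, chr13:58878248-58932060 (plus strand): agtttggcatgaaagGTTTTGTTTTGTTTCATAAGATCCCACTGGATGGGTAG
Epha7 distal, full-length receptor, chr4:28963914-28964003 (plus strand): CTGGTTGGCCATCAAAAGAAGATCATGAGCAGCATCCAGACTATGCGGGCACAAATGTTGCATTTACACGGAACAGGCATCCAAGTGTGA
Epha7 proximal, truncated receptor, chr4:28943364-28946253 (plus strand): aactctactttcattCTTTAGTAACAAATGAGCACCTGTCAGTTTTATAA
Ccnc distal, cyclin C, chr4:21746760-21748191 (plus strand): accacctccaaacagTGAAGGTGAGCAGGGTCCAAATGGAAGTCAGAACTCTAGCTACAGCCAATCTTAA
Ccnc proximal, cyclin C, chr4:21746760-21747534 (plus strand): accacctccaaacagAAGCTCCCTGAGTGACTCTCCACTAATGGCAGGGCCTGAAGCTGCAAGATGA
Sin3b distal, long form, chr8:72757316-72757405 (plus strand): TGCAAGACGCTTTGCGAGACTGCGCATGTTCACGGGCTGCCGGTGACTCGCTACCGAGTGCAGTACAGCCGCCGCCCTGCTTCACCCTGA
Sin3b proximal, short form, chr8:72739474-72739789 (plus strand): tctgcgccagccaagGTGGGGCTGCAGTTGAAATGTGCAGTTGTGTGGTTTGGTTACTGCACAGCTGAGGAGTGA
Ensa distal, endosulfine alpha, chr3:95628693-95631447 (plus strand): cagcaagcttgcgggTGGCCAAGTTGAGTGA
Ensa proximal, endosulfine alpha, chr3:95628693-95628711 (plus strand): cagcaagcttgcgggGTAA
The alternative coding ends of Cdc42 had 90 bases each and matched at 59 positions (65.6%), and those of Gnao1 had 342 bases each and matched at 254 (74.3%). Each transcript of these genes carries 1 of 2 similar last coding stretches. In Ntrk2, Epha7 and Sin3b the distal transcript carries a long coding stretch, of 1073, 1199 and 2475 bases, and the proximal transcript a short one, of 38, 35 and 60.

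Of the 85 genes, 69 did not pass the 2-fold limit, and of the 16 that did, 11 had a lower distal share in the synaptosome fraction, Gnao1, Epha7 and Dab1 among them, and 5 a higher one, Cdc42 among them. In the synaptosome fraction 5 genes (5.88%) were shifted toward the distal end, against 26.1% of all 758 genes with 2 transcripts, and 11 (12.9%) toward the proximal end, against 16.1%. In all, 16 (18.8%) were shifted, against 42.2% of the 758. Of the 673 genes with 2 transcripts outside these 85, 28.7% were shifted toward the distal end, 16.5% toward the proximal end and 45.2% in all. In 637 of the 758 both ends are the same and distal means only the longer transcript, so the directional shares are of unlike measures. By length, 7 of the 80 members of unequal length were shifted toward the longer and 9 toward the shorter transcript. Over all 745 such genes with 2 transcripts, 200 and 117 were. The median log2 odds ratio of the 85 was -0.06, where a negative value means a lower distal share in the synaptosome fraction, and the middle 50% of genes lay between -0.59 and 0.32. Of the 85, 22 had an interval wholly above 0, 35 wholly below 0 and 28 one that included 0. For comparison, the other 673 genes with 2 transcripts had a median size of the log2 odds ratio, regardless of sign, of 0.89, and the 85 had 0.47. Pairs with the same 3′ end, 637 genes for which the longer transcript stands in for the distal one, had 46.0% shifted, and 36 pairs with different ends under 500 bases apart had 30.6%. These shares describe the 2 libraries, and the difference between the groups of genes was not tested.

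**Figure D1:**
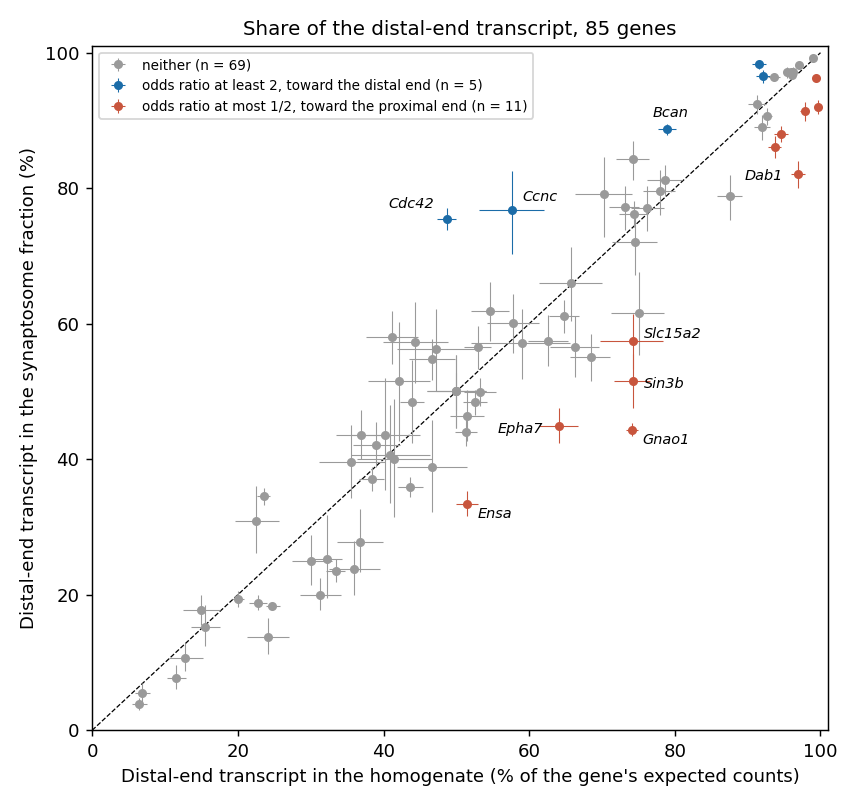
Distal share of each of the 85 genes in the homogenate (x axis, percent) and in the synaptosome fraction (y axis, percent), with exact 95% counting intervals and 1 library per fraction. Most points lie near the diagonal, Cdc42 lies above it at 48.7% and 75.5%, and Gnao1 lies below it at 74.1% and 44.4%.

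**Figure D2:**
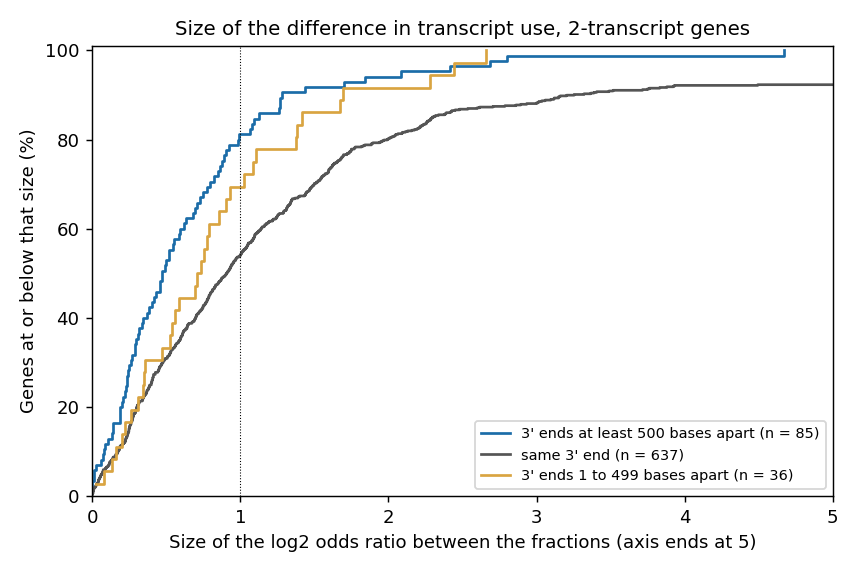
Cumulative share of genes (y axis, percent) by the size of the log2 odds ratio regardless of sign (x axis), for the 85 genes and for the 2-transcript genes with closer or identical 3′ ends. The median is 0.47 for the 85 genes and 0.91 for the 637 with the same 3′ end, whose line leaves the axis on the right.

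Among the 5 genes shifted toward the distal end was Cdc42 (chr4:137319696-137357759, minus strand), a small GTPase that organises the actin cytoskeleton. The distal transcript of Cdc42 had 2601 counts in homogenate and 2060 in synaptosomes, and the proximal transcript had 2744 and 670. Its distal share, that of the widespread form whose end is prenylated, was 48.7% (95% interval 47.3 to 50.0) in homogenate and 75.5% (73.8 to 77.1) in synaptosomes. The odds ratio was 3.24 (2.92 to 3.60), and the brain form, which can be palmitoylated, made up the rest. The proximal transcript was thus the larger part of Cdc42 counts in the homogenate and the smaller part in the synaptosome fraction. Per length, as TPM, the distal shares were 39.5% and 67.9%, with the same order.

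The highest odds ratio was that of Slc20a1, a sodium-dependent phosphate transporter. The distal transcript of Slc20a1 had 3039 counts in homogenate and 2027 in synaptosomes, and the proximal transcript had 280 and 35. This gave a distal share of 91.6% in homogenate and 98.3% in synaptosomes, an odds ratio of 5.34 (3.73 to 7.85). The proximal end was a minor part of Slc20a1 in both libraries, and its 35 counts in the synaptosome fraction limit the precision. The GENCODE M21 match of the proximal Slc20a1 transcript has no listed coding sequence. Ccnc, which encodes cyclin C of the Mediator kinase module, had 283 distal and 208 proximal counts in homogenate and 149 and 45 in synaptosomes. Its distal share was 57.6% in homogenate and 76.8% in synaptosomes, and the odds ratio was 2.43 (1.65 to 3.64). Abcc5, an organic anion exporter, had 2884 distal and 247 proximal counts in homogenate and 1633 and 58 in synaptosomes. Its shares were 92.1% and 96.6%, an odds ratio of 2.41 (1.79 to 3.29), so that the short proximal transcript was rare in both. Bcan encodes brevican, a proteoglycan of the brain matrix, whose distal end gives the secreted and whose proximal end the membrane-anchored form. It had 3452 distal and 919 proximal counts in homogenate and 5315 and 677 in synaptosomes. The distal share of Bcan was 79.0% in homogenate and 88.7% in synaptosomes, an odds ratio of 2.09 (1.87 to 2.33) that lies close to the 2-fold limit.

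Among the 11 genes shifted toward the proximal end, Gnao1 (chr8:93810838-93969388, plus strand) had the most counts. For all genes of this group odds ratios are given toward the proximal end. Gnao1 encodes the alpha subunit of Go, the most abundant G protein of the brain. The distal transcript of Gnao1 had 8205 counts in homogenate and 4719 in synaptosomes, and the proximal transcript had 2866 and 5916. The distal share, variant A, was 74.1% (95% interval 73.3 to 74.9) in homogenate and 44.4% (43.4 to 45.3) in synaptosomes. The odds ratio toward the proximal end was 3.59 (3.39 to 3.80). Variant B thus became the larger part of Gnao1 counts there, but not per length, since the TPM shares of variant A were 85.6% and 62.3%.

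For Adam23, a catalytically inactive ADAM protein that binds LGI1 at synapses, the odds differed most. The GENCODE M21 match of its proximal transcript has no listed coding sequence. The distal transcript of Adam23 had 2923 counts in homogenate and 2675 in synaptosomes, and the proximal transcript had 10 and 233. Its distal share was 99.7% in homogenate and 92.0% in synaptosomes, so the distal end stayed by far the more frequent while the odds of the proximal end were 25.5 (13.6 to 53.9) times as high. Dab1, the adaptor of reelin signalling, had 1342 distal and 42 proximal counts in homogenate and 1223 and 267 in synaptosomes. The distal share of Dab1 was 97.0% in homogenate and 82.1% in synaptosomes, an odds ratio toward the proximal end of 6.98 (4.97 to 9.99), and the TPM shares were 86.9% and 48.5%. Ankrd40, an ankyrin repeat protein, had 2535 distal and 15 proximal counts in homogenate and 5393 and 205 in synaptosomes. Its shares were 99.4% and 96.3%, and the odds ratio of 6.42 (3.79 to 11.7) rests on 15 proximal counts in the homogenate. Kcnt1, a sodium-activated potassium channel, had 2800 distal and 62 proximal counts in homogenate and 1531 and 144 in synaptosomes. Its shares were 97.8% and 91.4%, with an odds ratio of 4.25 (3.11 to 5.85). The proximal Kcnt1 transcript is listed as ending at its stop codon, with 0 bases of 3′ untranslated part. In these 4 genes the proximal transcript held under 100 counts in homogenate and between 144 and 267 in synaptosomes.

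In Sin3b, Epha7 and Ensa, both transcripts were well represented in each library. Sin3b, a scaffold of a histone deacetylase complex, had 910 distal and 316 proximal counts in homogenate and 325 and 306 in synaptosomes. The Sin3b distal share was 74.2% in homogenate and 51.5% in synaptosomes, an odds ratio toward the proximal end of 2.71 (2.20 to 3.33), the proximal transcript being the short form without the C-terminal part. Epha7, an ephrin receptor with a truncated proximal form that lacks the kinase domain, had 814 distal and 456 proximal counts in homogenate and 666 and 815 in synaptosomes. Distal shares were 64.1% in homogenate and 45.0% in synaptosomes, an odds ratio of 2.18 (1.87 to 2.56), so the truncated form was the larger part of counts only in the synaptosome fraction. Per length, as TPM, the larger Epha7 transcript did not change, and the shorter, truncated form was the larger part in both libraries. Ensa, an inhibitor of protein phosphatase 2A, had 2391 distal and 2255 proximal counts in homogenate and 869 and 1728 in synaptosomes. Its distal share was 51.5% in homogenate and 33.5% in synaptosomes, an odds ratio of 2.11 (1.91 to 2.33), and the 2 coding ends of Ensa differ by a few codons only.

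Slc15a2, a peptide transporter made by astrocytes and choroid plexus, had 308 distal and 107 proximal counts in homogenate and 345 and 256 in synaptosomes. Its distal end made up 74.2% in homogenate and 57.4% in synaptosomes, an odds ratio of 2.14 (1.61 to 2.84). Spin1, a reader of histone methylation, had 2728 distal and 183 proximal counts in homogenate and 1567 and 253 in synaptosomes, with shares of 93.7% and 86.1% and an odds ratio of 2.41 (1.96 to 2.96). Arl2bp, a partner of the small GTPase ARL2, had 2059 distal and 117 proximal counts in homogenate and 2487 and 339 in synaptosomes, with shares of 94.6% and 88.0% and an odds ratio of 2.40 (1.92 to 3.01). In Spin1 and Arl2bp the distal transcript remained the larger part of counts in both libraries.

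**Figure D3:**
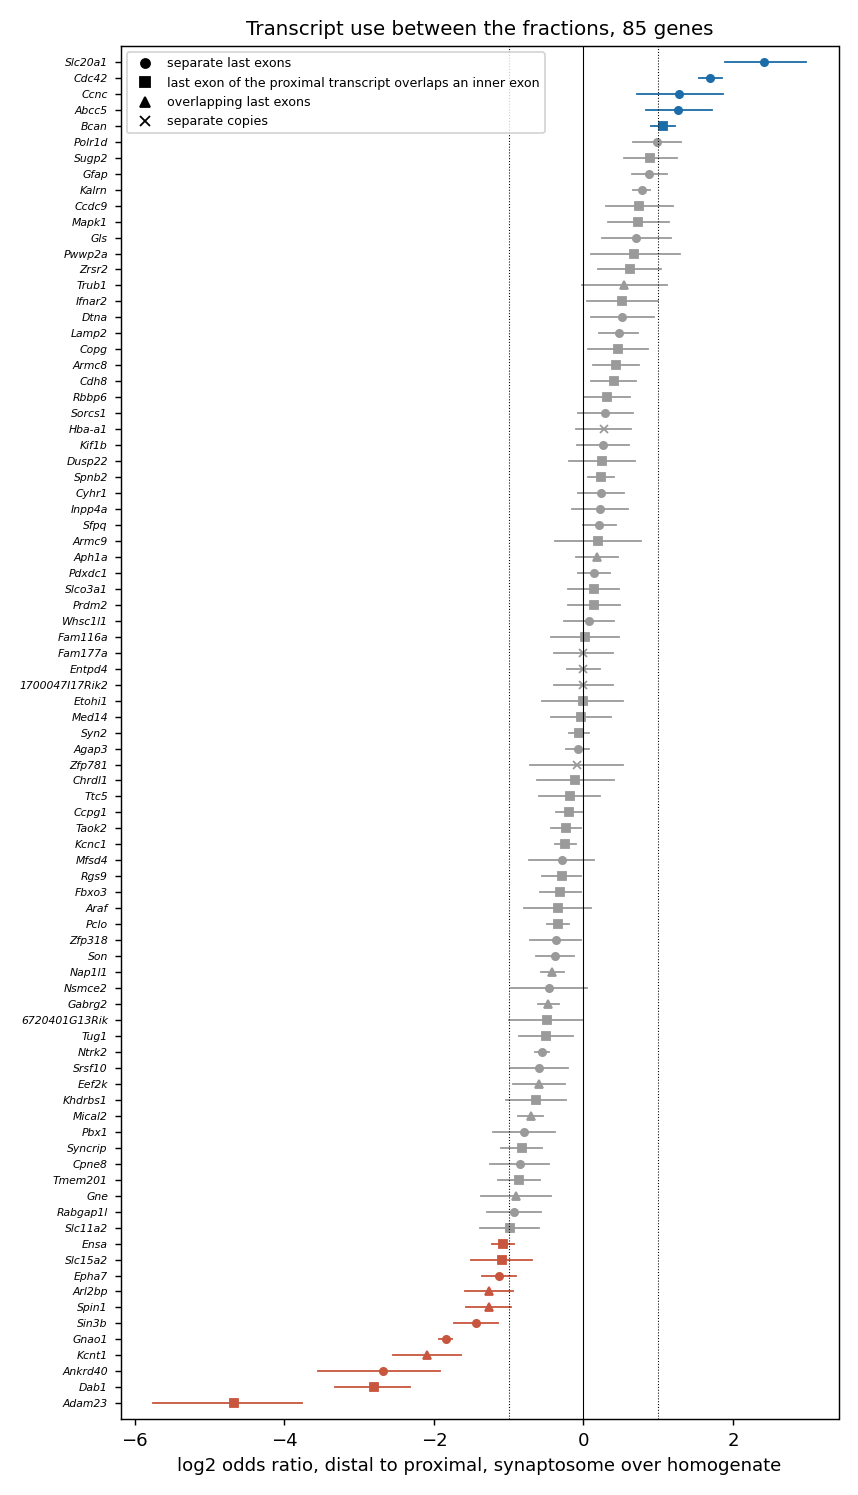
Log2 odds ratio of the distal against the proximal transcript, synaptosome over homogenate (x axis), with the exact 95% counting interval, for each of the 85 genes (y axis). Dotted lines mark the 2-fold limits, and Slc20a1 at 2.42 and Adam23 at -4.67 are the extremes.

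A shift in share can come from either transcript, so each was also set against the typical gene, using TMM scaling, which makes the median gene's ratio close to 0. In 4 of the 5 genes shifted toward the distal end, the proximal transcript was at least 2-fold lower in the synaptosome fraction. Its log2 ratio was -2.36 for Slc20a1, -1.57 for Ccnc, -1.45 for Abcc5 and -1.39 for Cdc42, while the distal transcript of Cdc42 had 0.31. Bcan differed, with a log2 ratio of 1.27 for the distal and 0.20 for the proximal transcript. In 9 of the 11 genes shifted toward the proximal end, the proximal transcript was at least 2-fold higher. These include Adam23, Dab1, Ankrd40 and Kcnt1, which passed the count minimum through their synaptosome counts. For Gnao1 the log2 ratio was 1.69 for the proximal and -0.16 for the distal transcript. The distal transcript was at least 2-fold higher in 1 of the 11, Ankrd40 at 1.73, and at least 2-fold lower in 0. With library totals in place of TMM, every log2 ratio moves by -0.49, the 9 become 7, and 2 of the 11 distal transcripts are at least 2-fold lower. The odds ratio itself does not depend on the scaling.

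**Figure D4:**
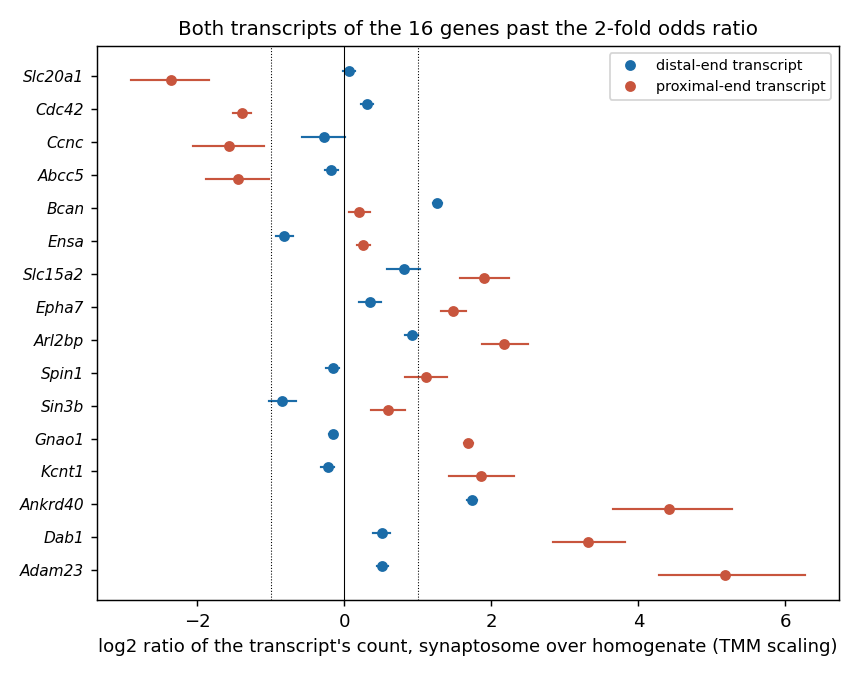
Log2 ratio of counts, synaptosome over homogenate with TMM scaling (x axis), for the distal (blue) and proximal (red) transcript of the 16 shifted genes (y axis), with exact 95% counting intervals. The proximal points lie left of -1 for Slc20a1, Cdc42, Ccnc and Abcc5 and right of 1 for 9 of the genes below them.

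Several pairs that are known as brain isoforms did not reach the 2-fold limit although their shares differed beyond counting error. Ntrk2 encodes TrkB, the receptor for BDNF, and its proximal end gives the truncated receptor without a kinase, which astrocytes mainly make. The distal transcript of Ntrk2 had 1980 counts in homogenate and 3121 in synaptosomes, and the proximal transcript had 6017 and 13914. The distal share was 24.8% in homogenate and 18.3% in synaptosomes, a log2 odds ratio of -0.55 (-0.65 to -0.46). Truncated TrkB was therefore the larger part of Ntrk2 counts in both libraries. Gfap, the intermediate filament of astrocytes, had 3549 distal and 241 proximal counts in homogenate and 12966 and 479 in synaptosomes. The share of its alpha form, the main one, was 93.6% in homogenate and 96.4% in synaptosomes, a log2 odds ratio of 0.88 (0.64 to 1.11). Kalrn, a guanine nucleotide exchange factor of dendritic spines, had 1937 distal and 6288 proximal counts in homogenate and 1912 and 3625 in synaptosomes. Its proximal end is that of the postsynaptic form kalirin-7, and the distal share was 23.6% in homogenate and 34.5% in synaptosomes, a log2 odds ratio of 0.78 (0.67 to 0.89), toward the longer forms.

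In Spnb2 and Kif1b the shares differed by under 1 percentage point. Spnb2, beta-II spectrin, had 12717 distal and 511 proximal counts in homogenate and 19808 and 675 in synaptosomes, with distal shares of 96.1% and 96.7%. Kif1b, a kinesin motor whose 2 ends give different cargo-binding tails, had 12494 distal and 123 proximal counts in homogenate and 20074 and 165 in synaptosomes, with shares of 99.0% and 99.2%. The log2 odds ratios of these genes were 0.24 and 0.26, although both had over 2-fold more counts in all in the synaptosome fraction after scaling. Syn2, a synapsin of the vesicle cluster, had a log2 odds ratio of -0.06. For Lamp2, a lysosomal membrane protein, the shares of form A were 46.6% and 54.7%, a log2 odds ratio of 0.47 (0.21 to 0.73). Rgs9, a regulator of G protein signalling, had shares of its striatal form of 51.5% and 46.4%, a log2 odds ratio of -0.29 (-0.55 to -0.03). In Lamp2 and Rgs9 the transcript with more counts differed between the fractions, with no limit for counting error and, in Rgs9, with nearly equal counts.

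Grouped by role, a grouping made after the values were seen, genes of the synapse and of excitability included 12 of the 85, of which 0 were shifted toward the distal and 3 toward the proximal end (Gnao1, Kcnt1 and Adam23). The listed proximal transcript of Kcnt1 ends at its stop codon, as given above. Over all 85 genes 5.88% were shifted toward the distal and 12.9% toward the proximal end, and over the 758 genes with 2 transcripts 26.1% and 16.1%. In 637 of the 758, distal means only the longer of 2 transcripts with the same end. No difference between a role group and these shares was tested. The log2 odds ratios of the 12 genes of the synapse and of excitability ran from -4.67 to 0.78 with a median of -0.27. Pclo, a scaffold of the active zone, had -0.34, and Kcnc1, a potassium channel of fast-spiking neurons, -0.24. Of 9 genes of RNA processing, none was shifted, with values from -0.83 to 0.89. Among them were Syncrip, an RNA-binding protein of transport granules, at -0.83, with distal shares of 68.4% and 55.0%, and Sugp2, a protein with a splicing-factor domain, at 0.89, with 74.3% and 84.2%. Rbbp6, which belongs to the cleavage and polyadenylation machinery itself, had 1315 distal and 484 proximal counts in homogenate and 507 and 150 in synaptosomes. Its distal shares were 73.1% and 77.2%, and its log2 odds ratio was 0.32 (0.01 to 0.63).

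Of 9 chromatin and transcription genes, Ccnc was shifted toward the distal and Spin1 and Sin3b toward the proximal end. Polr1d, a subunit shared by RNA polymerases I and III, was just inside the limit with 0.98 and shares of 41.1% and 58.0%. Of 6 membrane transporters, Slc20a1 and Abcc5 were shifted toward the distal and Slc15a2 toward the proximal end, and Slc11a2, an iron transporter, lay just inside the limit at -0.99 with 24.1% and 13.8%. Among 10 genes grouped as kinases, GTPases and regulators of these or of phosphatases, Cdc42 and Ensa were shifted, in opposite directions. Of 3 growth and guidance receptors and their adaptors, Epha7 and Dab1 were shifted toward the proximal end and Ntrk2 was not, with a median log2 odds ratio of -1.13. Bcan, Ankrd40 and Arl2bp, also shifted, were placed in none of these role groups.

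Of the 69 genes inside the 2-fold limit, Polr1d, Sugp2, Slc11a2 and Syncrip were among those near it. Polr1d had 309 distal and 442 proximal counts in homogenate and 368 and 266 in synaptosomes, and Sugp2 had 1125 distal and 390 proximal counts in homogenate and 556 and 104 in synaptosomes. On the other side, Slc11a2 had 212 distal and 668 proximal counts in homogenate and 95 and 594 in synaptosomes, and Syncrip had 783 distal and 361 proximal counts in homogenate and 454 and 371 in synaptosomes. Rabgap1l, a Rab GTPase-activating protein, had 1363 distal and 193 proximal counts in homogenate and 494 and 133 in synaptosomes, with a log2 odds ratio of -0.93 (-1.29 to -0.56). Gne, the enzyme that starts sialic acid synthesis, had 433 distal and 144 proximal counts in homogenate and 159 and 99 in synaptosomes, with -0.90 (-1.37 to -0.43). Among splicing and RNA-binding proteins, Srsf10 had 349 distal and 601 proximal counts in homogenate and 105 and 272 in synaptosomes, with -0.59 (-0.98 to -0.20), and Khdrbs1, known as Sam68, had 255 distal and 1955 proximal counts in homogenate and 75 and 891 in synaptosomes, with -0.63 (-1.04 to -0.24). Both thus had a lower distal share in synaptosomes. Sfpq, a paraspeckle protein, had 1458 distal and 1296 proximal counts in homogenate and 525 and 404 in synaptosomes, with 0.21 (-0.01 to 0.43), and Son, a nuclear speckle protein, had 5222 distal and 413 proximal counts in homogenate and 1989 and 205 in synaptosomes, with -0.38 (-0.64 to -0.12).

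Among synaptic genes inside the limit, intervals excluded 0 for Pclo, Kcnc1 and Cdh8 and included 0 for Syn2 and Sorcs1. Pclo had 990 distal and 3371 proximal counts in homogenate and 835 and 3600 in synaptosomes, a log2 odds ratio of -0.34 (-0.49 to -0.19). Kcnc1 had 1850 distal and 1669 proximal counts in homogenate and 1414 and 1508 in synaptosomes, with -0.24 (-0.38 to -0.10). Both of these had a lower distal share in synaptosomes. Syn2 had 1848 distal and 7388 proximal counts in homogenate and 785 and 3278 in synaptosomes, with an interval of -0.20 to 0.07. Sorcs1, a sorting receptor, had 117 distal and 667 proximal counts in homogenate and 210 and 977 in synaptosomes, with 0.29 (-0.07 to 0.66), and Cdh8, a cadherin, had 289 distal and 494 proximal counts in homogenate and 320 and 414 in synaptosomes, with 0.40 (0.10 to 0.71).

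The 85 genes did not share a single gene structure. The counts by structure and stop codon below stand beside 5.88% shifted toward the distal and 12.9% toward the proximal end over all 85. No difference between these classes was tested. In 39 the last exon of the proximal transcript overlapped an inner exon of the distal transcript, and 1 of these was shifted toward the distal and 4 toward the proximal end. In 31 the last exons were separate, with 4 shifted each way. In 10 the last exons overlapped, with 0 shifted toward the distal and 3 toward the proximal end and a median log2 odds ratio of -0.65. The remaining 5 pairs, Hba-a1, Entpd4, Zfp781, 1700047I17Rik2 and Fam177a, were near-identical copies at separate places rather than ends of 1 transcription unit, and their values are uncertain because their reads may not be told apart. Hba-a1 had 1561 distal and 1996 proximal counts in homogenate and 131 and 139 in synaptosomes. Of the 5, 1700047I17Rik2 and Fam177a are listed at the same coordinates with the same counts, so that 1 pair of places is counted under both names. None of these 5 was shifted, and 3, these names and Entpd4, had exactly 50.0% in both libraries. Without them 20% of 80 genes were shifted and the median was -0.09. No pair had the same start together with a length difference equal to the distance between its ends, the pattern of 1 longer last exon and no other change. This rule is strict and does not show that no last exon was longer. The 2 transcripts of Eef2k had the same inner exon borders and stop codon, with 3′ untranslated parts of 3828 and 610 bases. Of the pairs matched to GENCODE M21 other than copies, 57 had different stop codons, with 3 shifted toward the distal and 6 toward the proximal end, and 9 shared the stop codon, with 0 and 2. In 14 the coding end of at least 1 transcript was not matched, with 2 shifted toward the distal and 3 toward the proximal end.

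How much sequence tells the 2 transcripts apart differed between genes. The bases found in only 1 of the 2 transcripts, taken as the lower of the pair's values, had a median of 847 for the 85 genes and of 0 for the other 673. Of the 3 genes with under 100 such bases, 0 were shifted. Of the 13 genes with at least 100 but under 300 such bases, 7 were shifted (53.8%), and all 7 toward the proximal end. Of the 35 with at least 300 but under 1000, 7 were shifted (20%), 5 toward the distal end. Of the 34 with at least 1000, 2 were shifted (5.88%), Gnao1 and Epha7. Among the other 673 genes the share shifted differed less between these ranges, with 44.5% of 490 genes under 100 bases, 46.7% of 150 from 100 and 50.0% of 32 from 300. The 7 shifted members with under 300 were Adam23, Dab1, Ankrd40, Kcnt1, Arl2bp, Sin3b and Slc15a2. The part of transcript-specific length in their values was not tested.

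**Figure D5:**
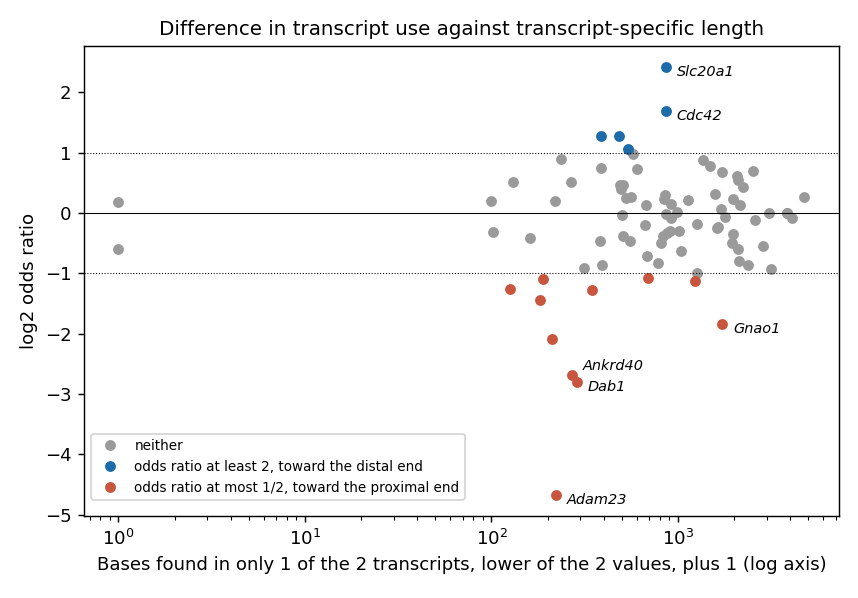
Log2 odds ratio (y axis) against the number of bases found in only 1 of the 2 transcripts, the lower of the pair's values plus 1 (x axis, log scale), for the 85 genes. Blue points are shifted toward the distal and red points toward the proximal end, and the 34 genes with at least 1000 such bases hold 2 shifted genes.

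The transcript with more counts changed between the fractions in 13 genes. Any change of the larger count was included, without a limit for counting error, and in Rgs9 and Kcnc1 both transcripts had nearly equal counts. Cdc42, Lamp2, Polr1d, Ccdc9, Ifnar2 and Trub1 had more distal counts only in the synaptosome fraction. Gnao1, Ensa, Epha7, Kcnc1, Rgs9, Ccpg1 and Nap1l1 had more distal counts only in the homogenate. In all, the distal transcript had the larger count in 48 genes in homogenate and 47 in synaptosomes. Per length, as TPM, it was the larger in 41 and 46. By that measure 7 genes turned toward the distal end (Cdc42, Polr1d, Ccdc9 and Trub1 as above, and Armc8, Ccnc and Rbbp6), and Dab1 and Gne turned toward the proximal end.

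Summed over both transcripts, 11 of the 85 genes were higher in synaptosomes by at least 2-fold (12.9%, against 12.8% of 14153 genes tested) and 4 were lower by as much (4.71%, against 9.1%). The highest were Gfap at 5.54-fold, Ankrd40 at 3.43-fold and Ntrk2 at 3.33-fold. Among the 4 lower genes were Hba-a1 at 8.44-fold, 6720401G13Rik at 6.26-fold and Trub1 at 2.59-fold. With library totals, 3 were higher and 23 lower. Across the 85 genes, which are not independent replicates, the gene's log2 ratio and its log2 odds ratio had a Pearson r of -0.17 and a Spearman rho of -0.16.

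Genes that carry out or steer 3′ end formation had medians below that of all genes in the synaptosome fraction. Of 20 cleavage and polyadenylation genes, 0 were higher and 4 lower by at least 2-fold, where 12.8% and 9.1% of all genes tested were. The median log2 ratio was -0.71, against -0.01 for all genes. The 4 were Cpsf6 at -1.47 and Cpsf7 at -1.05, subunits of cleavage factor I, the poly(A) polymerase Papolg at -1.30, and the nuclear poly(A)-binding protein Pabpn1 at -1.27. The third gene of cleavage factor I, Nudt21, had 0.30. Of 15 RNA-binding proteins linked to the choice of 3′ end, 0 were higher and 2 lower, the neuronal Elavl2 at -1.64 and Elavl4 at -1.31, with a median of -0.61. A count of 2 in 15 is near the 9.1% of all genes. These are levels of the mRNAs, not of the proteins.

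The fractions also differed in markers of cell types, given here for the whole lists. No marker was at 0 in both libraries. Calls use TMM scaling, and summed levels are per library total, which places every log2 ratio 0.49 lower. Over all genes tested, 12.8% were higher and 9.1% lower by at least 2-fold with TMM scaling. All 9 neuronal markers had counts in both libraries, with a summed level of 8994 CPM (counts scaled to a common library total) in homogenate and 5942 CPM in synaptosomes. Of these 9, 0 were higher and 3 lower by at least 2-fold, and of 8 dendritic mRNAs 5 were higher and 0 lower. Of 9 astrocyte markers, which include Gfap, 7 were higher, and their summed level was 6098 CPM in homogenate and 19730 CPM in synaptosomes. Of 7 microglial markers 4 were higher, with a sum of 253 and 342 CPM, and of 8 oligodendrocyte markers 2, Mbp and Mobp. The oligodendrocyte median log2 ratio was 0.31, or -0.18 under library totals, and Mbp alone had 58054 and 197245 counts. All 6 endothelial and all 5 blood markers were lower, the endothelial ones summing to 195 and 14.4 CPM, and Hba-a2 was at 0 in the synaptosome fraction. Of 4 choroid plexus markers, 1 was lower. All 4 nuclear RNAs were lower, at 9741 and 1418 CPM. Under library totals, Aqp4 (1.27 with TMM), Arc (1.19), C1qa (1.16) and C1qb (1.09) would not be 2-fold higher. Syn1 (-0.97 with TMM), Folr1 (-0.66) and Nrgn (-0.53) would then be at least 2-fold lower. The part of these differences in the shares of Ntrk2, Gfap, Bcan, Slc15a2 and the other genes was not tested.

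At the limits of the choice, the genes just inside the distance limit were Dusp22 (ends 766 bases apart, log2 odds ratio 0.25) and Aph1a (824 bases, 0.19), and those just outside were Hnrnpa2b1 (497 bases, -0.79) and Uba1 (475 bases, 0.16). Just inside the count limit were Dtna (0.52) and Zfp781 (-0.09), and just outside Atxn7l1 (0.64) and Eps15l1 (-0.84). The ends of the 85 genes lay 766 to 218250 bases apart with a median of 8110. The letters AATAAA, the main poly(A) signal, were present on the transcript strand in the last 50 bases of 48 of 68 distal ends matched to GENCODE M21 (70.6%) and of 39 of 63 proximal ends (61.9%), against 52.6% of 20461 matched ends of all transcripts. A match of letters is a description and does not show that the signal was used.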

How the data were processed

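RNA from 1 homogenate and 1 synaptosome library of mouse brain was compared. The submitters' processing notes name edgeR 3.0.6, RSEM 1.2.5, FastQC and TopHat 1.3.3, with mm10 as the build. Not given in the sources used here are their roles and whether counting used strand. Libraries came from a stranded mRNA kit with 100-base reads, per the labels. The authors deposited expected counts per transcript, which are estimates and can be fractional, and TPM, which is scaled per transcript length and to 1 sum per library.

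For the present work expected counts were rounded. Totals were 15210857 (homogenate) and 13709539 (synaptosome), of which the 85 genes made up 1.44% and 1.43%. Odds ratios have exact conditional 95% intervals, and shares and ratios exact Clopper-Pearson intervals. PCR copies are not independent molecules. A count of 0 was set to a floor of 3. Gene sums were scaled by TMM (edgeR 4.0.16, R 4.3.3) and kept at a mean of at least 1 CPM. Calculations used Python 3.11.15, numpy 2.4.6, scipy 1.17.1 and pandas 2.3.3, and were tested on simulated data.

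The genes and lists were chosen with earlier results of these data known. Genes named by rule were the 10 highest and 10 lowest odds ratios among shifted genes, the 6 with most counts, and those on a list, without predicted genes. Ensa and any further gene was named with its values known. Alternatives tried were TPM, the count and distance limits, a minimum of 20 counts in each library, a shared start, the rule of size, library totals, DESeq2 1.42.0 size factors and no filter on low counts. Further ones are named below as added later. The authors' table of gene signal was not used. Some members and sequences are counted but not reported here.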

Additional observations from a re-analysis of the deposited data

How the results depend on the processing

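The median log2 odds ratio lay between -0.23 and -0.03 under every setting tried for it, and the 22 genes named by rule stayed on their side of the 2-fold limit with TPM and with posterior estimates. The number of shifted genes moved with the limits. With at least 50 counts for each transcript, 15 of 171 genes were shifted toward the distal and 29 toward the proximal end. With at least 1000 counts, 2 and 3 of 21 were. With at least 20 counts for each transcript in each library, 5 and 9 of 83 were. Among the 57 genes with a shared start, 7 were shifted toward the proximal end. With a 1.5-fold limit, 14 and 22 of 85 were shifted. At gene level, library totals gave 3 higher and 23 lower genes in place of 11 and 4.

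A limit of 10 percentage points in share gave 5 and 11 genes again, of which 2 and 6 were also past the 2-fold limit. Chosen after seeing the data, leaving out the separate copies gave 5 and 11, and the deposited posterior estimates of the counts gave 6 and 11. No paired analysis was possible because each fraction had 1 library, and no replicate could be left out. The depth limits the genes with few proximal counts in the homogenate, such as Adam23 with 10 and Ankrd40 with 15.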
